A study of Mus musculus with 12 samples.

Results

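USF2 binding was examined at 10 genes that encode USF2 itself and its relatives among the basic helix-loop-helix leucine zipper transcription factors. They are Usf1 and Usf2, Tfeb, Tfe3 and Mitf of the MiT/TFE family, Myc, Max and Mxd4, and Mlx and Mlxip. The genes were chosen by name, as 10 of 21887 protein-coding genes, with earlier results of these data known. A peak was assigned to a gene when its summit lay inside the annotated span or within 1000 bp of either end. Of the 5772 USF2 peaks on the assembled chromosomes, 7 met this rule. The data are chromatin immunoprecipitation sequencing (ChIP-seq) peak lists from mouse embryonic fibroblasts (MEFs), labelled as wild type for all 4 USF2 libraries. The starved group comprised 2 libraries from cells deprived of glucose, and the normal group comprised 2 libraries from cells in normal culture. The labels give neither the length of the starvation nor the origin of the 2 libraries of a group in 1 or 2 cultures, and a p-value over them measures only their spread, which may be technical. The other libraries of the series, among them those of Usf2 knockout cells, were not analysed here, and peak lists do not allow the cell type to be checked by expression.

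These factors bind DNA as dimers, and many of them recognise the E-box, whose best known form in mammals reads CACGTG. USF1 and USF2 pair with each other. TFEB, TFE3 and MITF drive lysosomal and autophagy genes and are held out of the nucleus by mTORC1 signalling when nutrients are plentiful. MYC acts as a dimer with MAX, MXD4 competes with MYC for MAX as a repressor, and MLX pairs with MLXIP (MondoA) in transcription responses to glucose. Because the factors share a DNA motif, the question for this set is which of their own genes carry a USF2 peak.

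The lists held 825 and 1178 peaks in starved 1 and starved 2 and 1645 and 2124 peaks in normal 1 and normal 2. Each value below is the authors' own for a peak in its list. It consists of a fold enrichment over the local background, a −log10 q, and the rank of the peak by −log10 q, with tied peaks sharing the best rank. Peaks were at least 306 bp wide in the starved lists and at least 152 bp wide in the normal lists, a difference in calling between the conditions. For this reason no fold change between lists was computed. The number of reads piled up at a summit was recovered from the fold enrichment and p-value, and its 95% exact Poisson interval covers counting error only. The lowest pileup of any listed peak was 3 reads in each of the 4 lists, and a gene without a call is one where no position passed the caller's threshold, which does not show that USF2 was absent.

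The promoters of Mlx and Max are shown first, because both hold the E-box in an 8-letter form that reads GTCACGTG on one of the strands, and USF2 peaks were called at Mlx but not at Max. The sequences are RefSeq's for GRCm38.p6, run from 250 bases before to 50 after the start site, and have the E-box in capitals.
Mlx, chr11:101087040-101087339, plus strand: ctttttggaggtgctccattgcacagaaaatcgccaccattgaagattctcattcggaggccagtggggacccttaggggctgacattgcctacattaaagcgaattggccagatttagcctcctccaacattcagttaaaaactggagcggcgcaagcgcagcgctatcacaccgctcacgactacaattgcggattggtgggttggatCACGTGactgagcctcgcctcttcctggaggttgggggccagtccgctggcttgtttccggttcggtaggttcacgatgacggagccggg
Max, chr12:76962199-76962498, minus strand: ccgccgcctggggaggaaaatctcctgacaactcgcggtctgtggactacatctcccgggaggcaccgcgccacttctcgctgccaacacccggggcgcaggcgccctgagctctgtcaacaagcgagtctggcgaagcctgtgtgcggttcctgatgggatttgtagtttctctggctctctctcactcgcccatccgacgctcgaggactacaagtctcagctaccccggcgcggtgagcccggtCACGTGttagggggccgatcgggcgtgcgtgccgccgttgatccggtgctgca

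Mlx was the gene of the set with calls in most lists. Its span lies on chromosome 11 (101086707 to 101092207, plus strand), and its start site in the promoter table lies inside that span. Peaks with summits in the promoter were called in starved 1, starved 2 and normal 2. The fold enrichment was 6.78 in starved 1 and 7.46 in starved 2, against 6.68 in normal 2 and no call in normal 1. The −log10 q was 7.03 in starved 1, 8.11 in starved 2 and 5.29 in normal 2. Both starved lists thus called Mlx, and the normal lists were divided.

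In rank, Mlx stood at 233 of 825 peaks in starved 1, at 222 of 1178 in starved 2 and at 724 of 2124 in normal 2. It was therefore within the upper 28.2%, 18.8% and 34.1% of these lists, well below their strongest peaks. The summit pileup was 15 reads in each starved list (95% exact interval 8.40 to 24.7) and 9 reads in normal 2 (4.12 to 17.1). At the local background of the normal 2 peak, 5 reads would have met the weakest p-value listed in normal 1. The pileup in normal 1 itself is not known, because a list holds called peaks only.

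The Mlx summits marked nearly the same position in the 3 lists. They lay 53 and 51 bp upstream of the start site in starved 1 and starved 2, 2 bp apart from each other, and 30 bp upstream in normal 2. The E-box printed in capitals above begins 40 bases upstream of the start site. Its edge was 13 and 11 bp from the starved summits and 5 bp from the normal 2 summit. Measured from the E-box centre the distances were 15.5, 13.5 and 7.5 bp. Over all promoters that hold an E-box and a summit, the median distance from summit to E-box centre was 17.5 bp in starved 1, 23 bp in starved 2, 13.0 bp in normal 1 and 11.5 bp in normal 2, so the Mlx summits were as close to the motif as is usual in these lists.

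The peak cannot be assigned to Mlx alone. Its summits lay 618 to 641 bp from the end of Coasy, which encodes the enzyme of the last steps of coenzyme A synthesis and is separated from the Mlx span by 87 bp. About 17 kb upstream, at one end of the span of Naglu, a lysosomal glycosidase gene, all 4 lists had a peak. Its fold enrichment was 7.06 and 7.30 in starved 1 and starved 2, against 9.15 and 9.14 in normal 1 and normal 2. Normal 1 thus called the neighbouring site with a pileup of 19 reads while it had no call at Mlx. Of normal 2 peaks with 7 to 9 reads, the class of the Mlx peak, 34.5% overlapped a peak of normal 1.

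**Figure D1:**
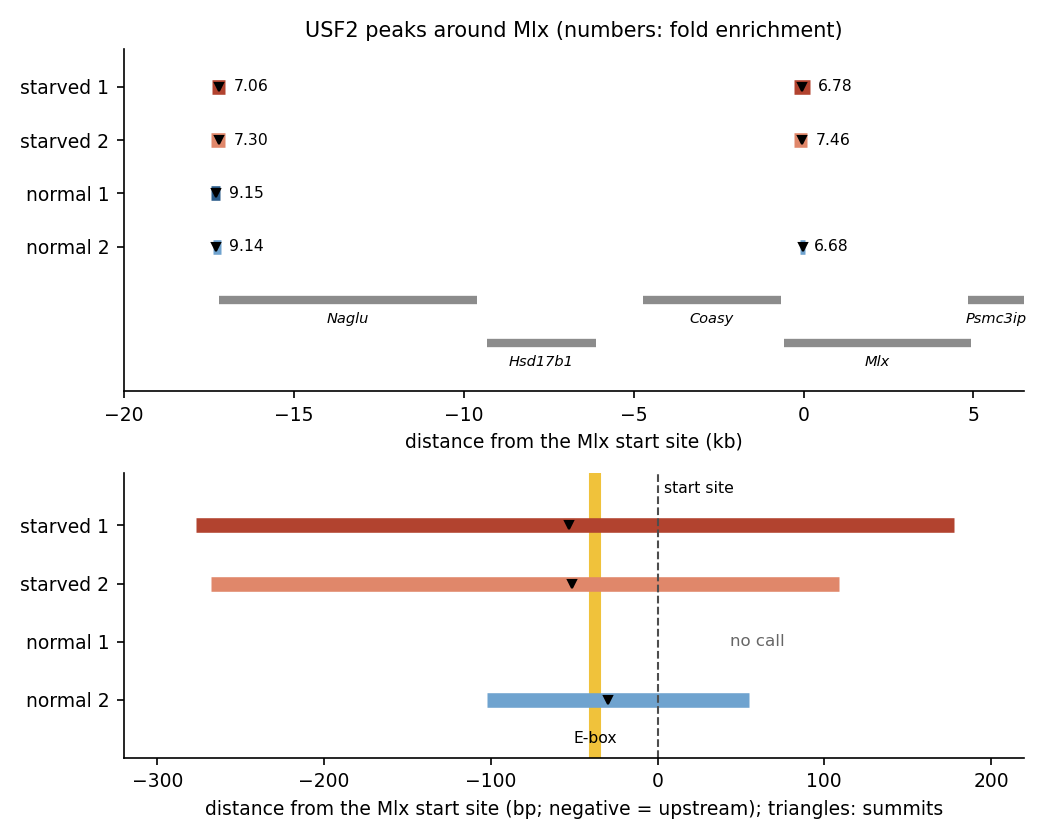
USF2 peaks around Mlx in the 4 lists, as distance from the Mlx start site in kb (upper panel, with gene spans as grey bars and fold enrichments as numbers) and in bp (lower panel). Coloured bars are called peaks and triangles are their summits; the starved 1, starved 2 and normal 2 summits lie 53, 51 and 30 bp upstream of the start site beside the E-box (yellow), and normal 1 has a call at Naglu but none at Mlx.

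The USF genes themselves had weak calls in the normal lists and none in the starved lists. Usf1 (chromosome 1, 171411307 to 171418954) was called inside the gene, 3179 bp from the nearer end and 2805 bp downstream of the nearest start site. Its fold enrichment was 4.51 in both normal lists, with −log10 q of 2.84 in normal 1 and 3.0 in normal 2. The peak rested on 4 reads in each list (95% exact interval 1.09 to 10.2). It ranked 1102 of 1645 in normal 1, a value shared by 203 peaks, and 1563 of 2124 in normal 2. The summit was at the same base in both lists and the peaks ended at the same base.

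Usf2 (chromosome 7, 30945248 to 30956951) had a peak in normal 1 alone, with the summit 109 bp inside one end of its span. The fold enrichment was 5.46 and the −log10 q 4.32, at rank 543 of 1645, a value shared by 253 peaks. It rested on 5 reads (95% exact interval 1.62 to 11.7). The same summit lay 928 bp from an end of Lsr, the gene of a lipoprotein receptor, so this peak too has more than 1 candidate gene. In the 3 lists without a call, the nearest summit was more than 2 Mb from Usf2 (3239539 and 3239541 bp in starved 1 and starved 2, 2284317 bp in normal 2).

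In the MiT/TFE family, Tfeb alone had a peak. Tfeb (chromosome 17, 47737037 to 47792416), the main activator of lysosomal genes in this family, was called in normal 2 with a fold enrichment of 6.07 and a −log10 q of 4.97. It ranked 748 of 2124 and rested on 6 reads (95% exact interval 2.2 to 13.1). The summit lay deep inside the gene, 24650 bp from an end and 23756 bp downstream of the nearest of its 3 start sites in the promoter table. It was therefore not at any of these start sites, and others were not checked.

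Tfe3 (chromosome X, 7762530 to 7775202) and Mitf (chromosome 6, 97807002 to 98021360) had no call in any list. The nearest summit to Tfe3 was 157138 and 157167 bp away in starved 1 and starved 2 and 146525 and 455661 bp away in normal 1 and normal 2. For Mitf, the regulator of pigment cell genes and with 214359 bp the longest span of the set, it was 1284699 and 331951 bp in the starved lists and 187347 bp in both normal lists. The length of the Mitf span gave the rule for peaks inside genes more room than at any other member, and it found none.

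The MYC and MAX branch had no call at all. No list had a peak at Myc (chromosome 15, 61985341 to 61990361), Max (chromosome 12, 76937269 to 76962323) or Mxd4 (chromosome 5, 34176580 to 34187710). The nearest summits to Myc were 2105954 and 936527 bp away in starved 1 and starved 2 and 89056 and 89043 bp away in normal 1 and normal 2. The nearest to Max was 24287 bp away, in starved 2, and the nearest to Mxd4 was 507630 bp away, in both normal lists.

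Mlxip (chromosome 5, 123394521 to 123457932), a partner of MLX, also had no call. The nearest summit was between 114994 and 115109 bp away in the 4 lists, so each list had a peak at about the same distance from Mlxip. Peaks were thus called at Mlx and not at Mlxip.

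**Figure D2:**
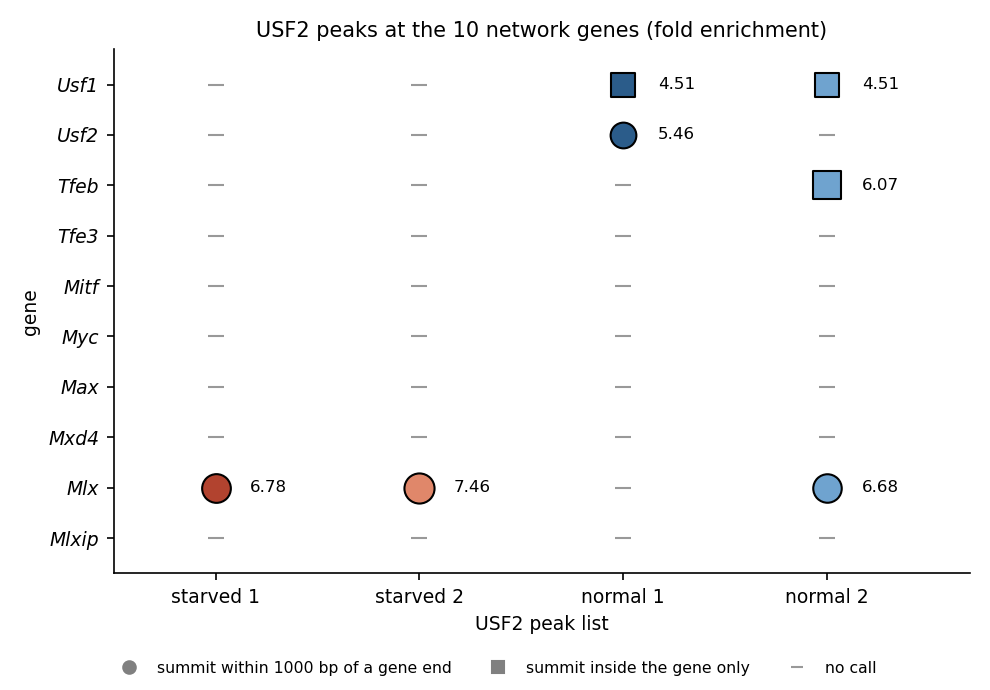
USF2 peaks at the 10 genes (rows) in the 4 lists (columns), with the authors' fold enrichment as number and marker area. Circles have a summit within 1000 bp of a gene end, squares a summit inside the gene only, and dashes mark no call; Mlx is the gene called in both starved lists (6.78 and 7.46), and Usf1, Usf2 and Tfeb are called in normal lists only.

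Counted over the set, 4 of 10 genes had a peak in at least 1 list, against 10.5% of all protein-coding genes, and 6 had none. In starved 1 and starved 2, 1 of 10 genes was called, in both cases Mlx, where 3.23% and 4.1% of all protein-coding genes were. In normal 1 and normal 2, 2 and 3 of 10 were called, where 5.46% and 6.5% of all genes were. Both starved lists called 1 gene of the set (2.48% of all genes), both normal lists called 1, Usf1 (4.08%), and all 4 lists called none (1.35%). Without normal 1, the 3 remaining lists all called Mlx. A call in both starved lists and in 1 normal list, as at Mlx, was found at 41 genes, or 0.187% of all genes. This count includes Mlx itself and Coasy, which has the same peaks. With 10 genes, 1 call moves a share by 10%, and nothing particular to the set can be read from these counts.

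The number of genes called per list was 1.0 ± 0.0 in the starved lists and 2.5 ± 0.71 in the normal lists (SD, n = 2 each). The difference of −1.5 genes had an exact two-sided permutation p of 0.33, the smallest that the 6 labelings of 4 lists allow. Its direction rested on weak peaks. It turned to 0.5 with −log10 q of at least 5 and to 1.0 with pileups of at least 10 reads, settings under which Mlx was the only gene of the set left, and it was 0 when only summits within 1000 bp of a gene end were counted. It shrank to −0.5 when each list was cut to the length of the shortest.

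Peaks as weak as those at Usf1, Usf2 and Tfeb were common in the normal lists and were rarely shared across conditions. Pileups of at most 6 reads made up 67.4% of the peaks in normal 1 and 58.7% in normal 2. Of peaks with 3 to 4 reads, the class of Usf1, 0.416% in normal 1 (95% exact interval 0.0504 to 1.49) and 0.429% in normal 2 (0.0520 to 1.54) overlapped a peak of a starved list. Of peaks with 5 to 6 reads, the class of Usf2 and Tfeb, 1.59% in normal 1 (0.766 to 2.91) and 1.28% in normal 2 (0.616 to 2.35) did. The lack of a starved call at these genes was thus what nearly all normal peaks of that strength showed. Between the normal lists such peaks recurred more often. With 3 to 4 reads, 44.7% in normal 1 and 43.3% in normal 2 overlapped a peak of the other normal list. With 5 to 6 reads, 55.7% in normal 1 and 45.1% in normal 2 did. Some peaks of these classes shared an identical edge with a peak of the other normal list, as described below for Usf1.

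In each list, peaks with more reads overlapped a peak of the other condition more often. Of peaks with 15 or more reads, the class of Mlx in the starved lists, 79.1% in starved 1 (95% exact interval 73.4 to 84.2) and 77.6% in starved 2 (72.0 to 82.6) overlapped a normal peak, as Mlx did. Mlx, with 15 reads, stood at the lower edge of this class, which reached 64 reads in starved 1 and 61 in starved 2. In the class below, of 10 to 14 reads, 53.9% in starved 1 (45.3 to 62.3) and 58.6% in starved 2 (50.5 to 66.4) overlapped a normal peak. Of peaks with 7 to 9 reads, the class of Mlx in normal 2, 13.9% (10.3 to 18.2) overlapped a starved peak, so most peaks of that class did not. Position differed along with strength. Of the peaks with 15 or more reads, 84.7% and 82.4% in starved 1 and starved 2, against 81.1% and 70.3% in normal 1 and normal 2, lay within 1000 bp of a gene end. Of those with 3 to 4 reads, 5.05% and 3.30% in the starved lists, against 6.65% and 4.94% in the normal lists, did.

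**Figure D3:**
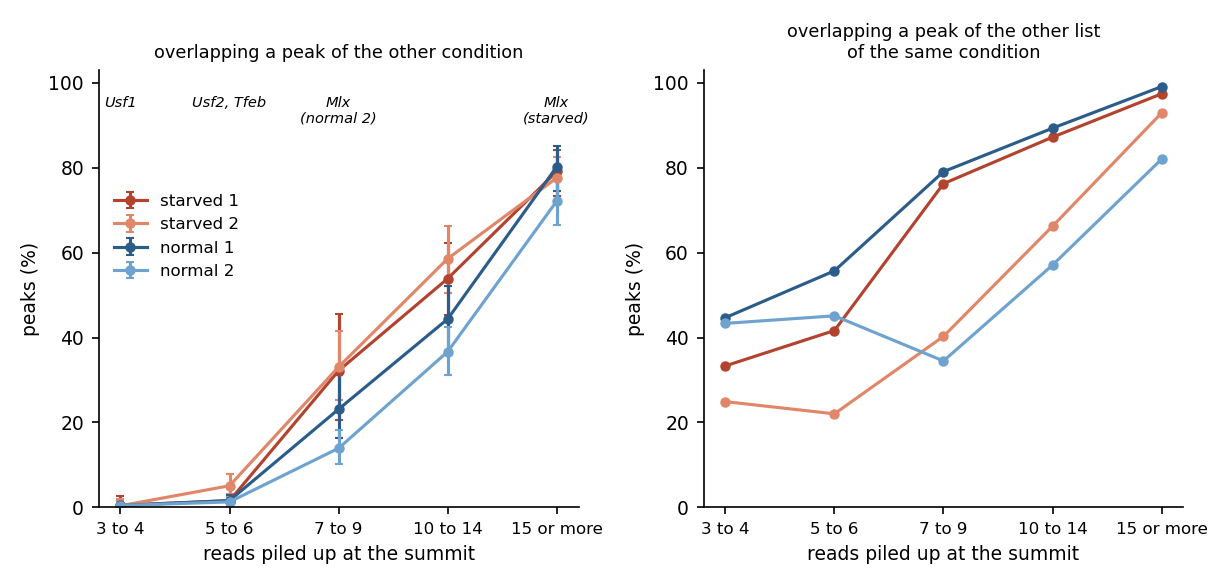
Share of peaks (%) that overlap a peak of the other condition (left, with 95% exact intervals) or of the other list of the same condition (right), by the number of reads at the summit, for the 4 lists. Gene names stand above the class of their peaks; in the normal lists the classes of Usf1, Usf2 and Tfeb reach at most 1.59% on the left, and the starved class of Mlx reaches 79.1% and 77.6%.

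Usf1 was the gene of the set whose peaks had an edge in common between the lists of a condition. The 2 normal peaks shared their end coordinate, as 28.6% of the peaks in normal 1 and 22.2% in normal 2 shared an edge with a peak of the other normal list. When such peaks were left out, a setting chosen after seeing the data, Usf1 dropped out and no gene of the set was called in both normal lists. What produces identical edges was not tested.

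The promoter sequences separate the genes in a way that the peak lists alone do not show. The RefSeq table held 14 promoters of 8 of the 10 genes, all but Usf2 and Myc. Of these, 3 promoters contained CACGTG, which is its own reverse complement and so reads alike on both strands. They belonged to Mlx, Max and Mxd4. The 11 promoters of Usf1, Tfeb, Tfe3, Mitf and Mlxip did not contain these letters. Among all 32851 promoters of the same length, 7.15% did.

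The 8-letter form, GTCACGTG or its reverse complement CACGTGAC, was present at Mlx and Max and not at Mxd4, and in 2.25% of all promoters. It contains the 6-letter E-box, so promoters with the longer form are a subset. The E-box of Max begins 3 bases upstream of its start site, and that of Mxd4 219 bases upstream. Windows of 30 bases around these E-boxes, and around 1 E-box of the 8-letter form in each of 4 genes called in all 4 lists, show the flanks, with the 6-letter E-box in capitals and the strand of the gene.
Mlx, chr11:101087238-101087267, plus strand: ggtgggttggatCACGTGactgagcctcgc
Max, chr12:76962234-76962263, minus strand: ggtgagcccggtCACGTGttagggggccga
Mxd4, chr5:34187912-34187941, minus strand: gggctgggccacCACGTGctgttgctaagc
Kat5, chr19:5610263-5610292, minus strand: cccggtgggcgtCACGTGacagactcggcg
Mcoln1, chr8:3500462-3500491, plus strand: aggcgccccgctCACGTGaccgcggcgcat
Cdk4, chr10:127063425-127063454, plus strand: atagcaacaggtCACGTGgccgtcagggcc
Eif4e, chr3:138527192-138527221, plus strand: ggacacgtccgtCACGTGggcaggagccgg

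In every list the longer form went with more calls. A summit lay in 28.6% of the 738 promoters with the 8-letter form in starved 1 (95% exact interval 25.4 to 32) and in 31.7% in starved 2 (28.4 to 35.2), against 28.9% in normal 1 (25.6 to 32.3) and 27.9% in normal 2 (24.7 to 31.3). Of the 1611 promoters with the 6-letter form only, 2.67% and 3.10% had a summit in starved 1 and starved 2 and 3.04% and 3.41% in normal 1 and normal 2. Without CACGTG the shares were 0.125% and 0.157% in the starved lists and 0.384% and 0.479% in the normal lists. Neighbouring genes can share a promoter, so these promoters are not independent.

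Set against these shares, Mlx belonged to the 43.5% of promoters with the 8-letter form that had a summit in at least 1 list. Max belonged to the remainder, with the same 8 letters and no call. Of the promoters with the 6-letter form only, 5.09% had a summit in at least 1 list, and that of Mxd4 had none. A match of letters is a description of the promoter and does not show that USF2 can use the site in these cells.

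**Figure D4:**
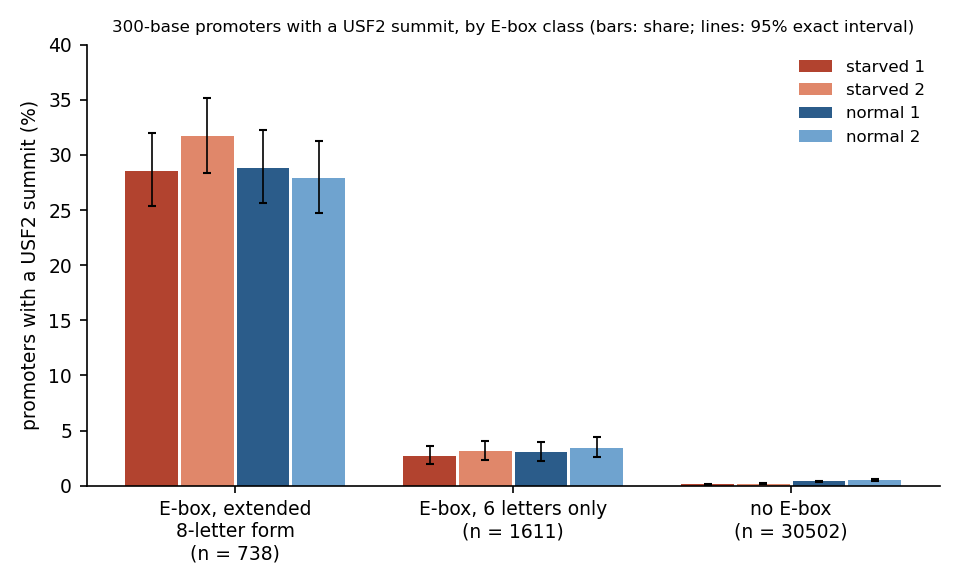
Share (%) of 300-base promoters with a USF2 summit in each list, for promoters with the 8-letter E-box, with the 6-letter E-box only, and without it; lines are 95% exact intervals and n is the number of promoters. The 8-letter class, to which Mlx and Max belong, lies between 27.9% and 31.7%, and the 6-letter class, to which Mxd4 belongs, between 2.67% and 3.41%.

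Genes around the network were described by 4 lists with 59 genes in all. Of these 59, 8 and 6 were called in starved 1 and starved 2, where 3.23% and 4.1% of all protein-coding genes were, and 11 in each of normal 1 and normal 2, where 5.46% and 6.5% were. At least 1 list called 16 of the 59, against 10.5% of all genes. In all 4 lists the calls were at Kat5, Trrap, Mcoln1, Cdk4 and Eif4e. Several genes of these lists, Cdk4, Mcoln1, Flcn and Fbl among them, were known to be called before the lists were written, so the counts support nothing on their own.

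Among 13 other genes of the same protein class, none was called in both starved lists, where 2.48% of all protein-coding genes were, so nothing can be read from that count. Both normal lists called Mxi1, a MAX-binding repressor, inside the gene, with fold enrichments of 5.98 in each and 6 reads. Mlxipl (ChREBP), another partner of MLX, as well as Mycn, Mycl, Mnt, Mga, Usf3, Srebf1 and Srebf2, had no call in any list.

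Of 16 cofactors and turnover factors of MYC and MAX, 2 were called in all 4 lists, as were 1.35% of all protein-coding genes. Kat5, an acetyltransferase recruited by MYC, had fold enrichments of 6.91 and 6.41 in starved 1 and starved 2, against 6.90 and 7.53 in normal 1 and normal 2. Trrap, the scaffold of such acetyltransferase complexes, had 6.04 and 6.08 in the starved lists and 3.48 and 3.83 in the normal lists at a site near its span's end. The pileups at that site were 8 and 19 reads in starved 1 and starved 2 and 19 and 21 in normal 1 and normal 2. The lower normal folds thus did not come with fewer reads, and these folds are not a measure of change with starvation. A further site inside Trrap was called in both normal lists, with fold enrichments of 5.47 and 5.46.

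Of 15 regulators and partners of the MiT/TFE factors, Mcoln1, a lysosomal calcium channel upstream of TFEB, was the strongest. Its fold enrichments were 7.42 and 7.17 in starved 1 and starved 2, against 12.7 and 12 in normal 1 and normal 2. Flcn, whose product folliculin controls TFEB through the Rag GTPases, was called in the normal lists only (5.47 and 7.29).

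Of 15 textbook targets of MYC and of MLX partners, Cdk4, a cell cycle kinase, had fold enrichments of 9.62 and 15.5 in starved 1 and starved 2, against 15.9 and 13.1 in normal 1 and normal 2, and ranked second in starved 2. Eif4e, the cap-binding translation factor, had 8.04 and 7.0 in the starved lists and 11.9 and 13.2 in the normal lists. Nme1, a nucleoside diphosphate kinase, was called in the starved lists only (5.38 and 4.63), and Fbl, a nucleolar methyltransferase, in the normal lists only (best peaks 3.86 and 5.08). The glucose-responsive MLX targets Txnip and Arrdc4 had no call in any list, nor had the MYC targets Odc1, Cad, Ncl, Nop56 and Ldha.

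The promoter table held 50 of the 59 genes. All 4 genes with the 8-letter form in a promoter (Kat5, Mcoln1, Cdk4 and Eif4e) had a summit there in each list, where 15.7% of all promoters with that form had one in all 4 lists and 43.5% in at least 1. Of 7 genes with the 6-letter form only, 2 had one, Nme1 in both starved lists and Rragc in normal 2, where 5.09% of all such promoters had one in at least 1 list. None of the 39 genes without CACGTG had a summit in a promoter, and of all promoters without it 0.616% did. These counts are of genes and the shares beside them are of promoters. A gene with more than 1 promoter was counted if any of them had a summit, so the units are unlike. Calls at Cdk4 and Mcoln1 were known when the lists were written, so the count for the 8-letter form was partly fixed by that choice and supports nothing.

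**Figure D5:**
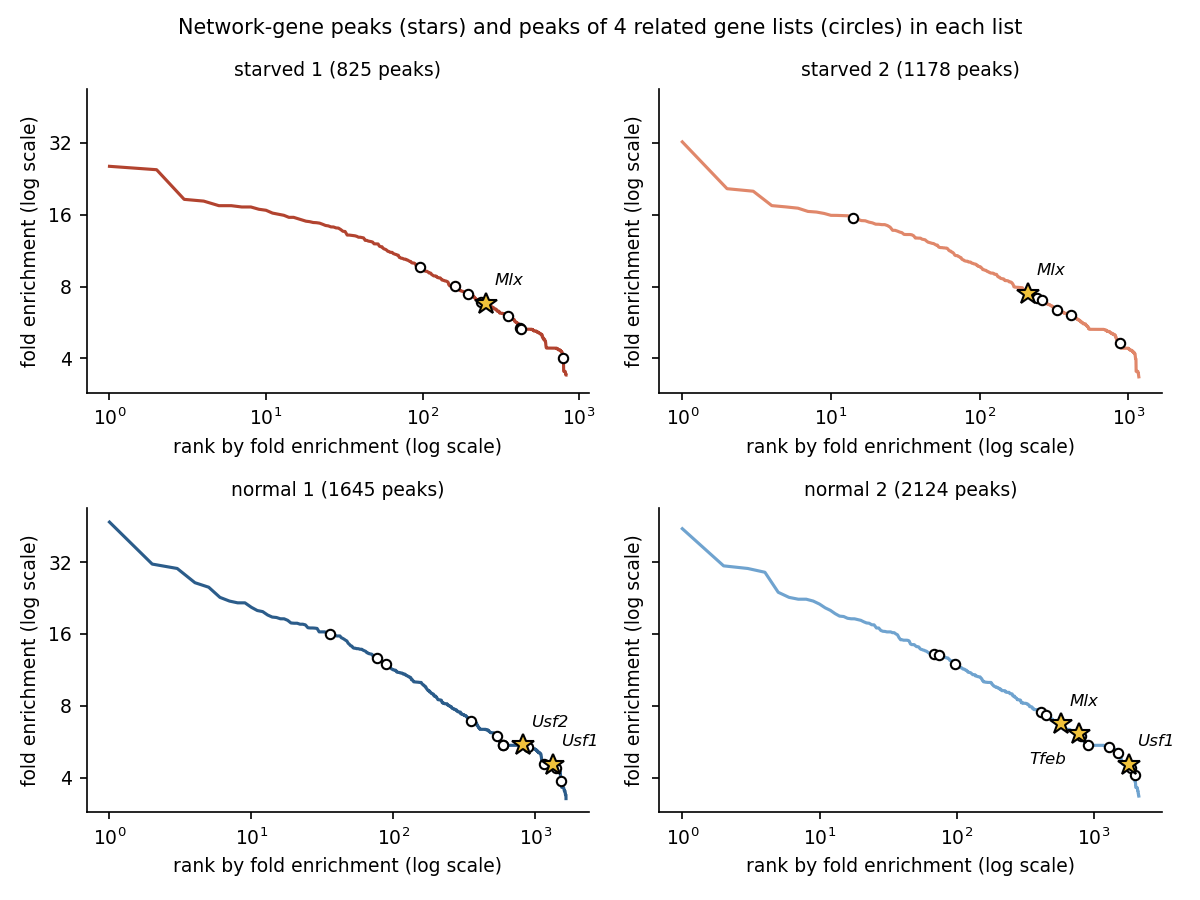
Fold enrichment against rank by fold enrichment (both log scales) for all peaks of each list. Stars are peaks at the 10 genes and circles the strongest peak of each called gene of the 4 related lists; Mlx lies at rank 255 of 825 in starved 1 and 212 of 1178 in starved 2 by fold enrichment, and Usf1 at 1327 of 1645 in normal 1 and 1799 of 2124 in normal 2.

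By likeness of pattern, measured as the mean absolute difference in log2 fold enrichment over the lists that call a gene, Mlx was closest to Coasy, with a difference of 0, because both take their values from the same peaks. Of the 20 genes called in the same 3 lists, Mrpl1, a mitochondrial ribosomal protein gene, followed with 0.09 and Rbm34 with 0.17. Mrpl1 had fold enrichments of 6.57 and 6.73 in starved 1 and starved 2, against 6.35 in normal 2. For Usf1, 509 genes were called in the normal lists only, and Ppp1r3b, Fryl and Sema6d were closest, with differences of at most 0.01. Of the 509 genes, 4 lay within 0.01 of Usf1. At 4 reads the fold enrichment varies with the local background alone and takes few distinct values. The −log10 q of Usf1 in normal 1 was a value shared by 203 peaks. The closeness to these genes thus marks no pattern particular to Usf1.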

How the data were processed

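USF2 was measured by ChIP-seq in 4 wild-type MEF libraries, grouped by the labels. Per the submitters' processing notes, the tools were MACS2 2.2.7.1, deepTools 3.5.1 and Bowtie2 2.5.1, with build GRCm38. Parameters and the use of the inputs as control are not given in the sources used here. The deposited lists were called per library, not pooled. They give a fold enrichment (a ratio), −log10 p and −log10 q values, and a score, which in the authors' deposited columns equals −log10 q multiplied by 10 and rounded down. Of the starved 2 list, 8 peaks off the assembled chromosomes were left out. Peaks on assembled chromosomes were assigned to RefSeq genes of GRCm38.p6 (Python 3.11.15, pandas 2.3.3, scipy 1.17.1). Read pileups were recovered from fold and p, where (reads + 1)/(background + 1) equals the fold and the Poisson tail equals p. On 1000 simulated peaks made with the same formula, the true pileup came back for 100% of them. This checks the arithmetic only, not whether the caller used that formula. Library depth is not given in the lists, and pileups of 3 to 80 reads limit the precision.

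The members and lists were chosen with earlier results of these data known. All 10 genes, their peaks and the genes sharing them are named, as are related-list genes with peaks in at least 2 lists, except 1 that is not reported here, and the 3 genes of most similar pattern. Related-list genes without such peaks were named after their values were seen. Conditions were compared by an exact permutation test over lists. Promoter shares have 95% Clopper-Pearson intervals.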

Additional observations from a re-analysis of the deposited data

How the results depend on the processing

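Mlx was called in both starved lists under every alternative that kept both, and the count of genes called in both was 1 in each. Leaving out a replicate could not change this count. A normal list does not enter it, and each starved list called Mlx alone. The difference in genes called per list, starved minus normal, of −1.5 turned to 0.5 with −log10 q of at least 5 and to 1.0 with pileups of at least 10 reads, and was 0 with gene ends alone. It was −0.5 with lists cut to the length of the shortest and −0.5 with identical edges left out. It lay between −2.0 and −1.0 when 1 replicate was left out. The genes called in both normal lists numbered 0 with gene ends alone, with −log10 q of at least 5, with lists cut to the length of the shortest, with pileups of at least 10 reads and with identical edges left out, and 1 to 3 without 1 replicate (3 without normal 1 and 2 without normal 2, since the other list then decides). Genes called in all lists numbered 0 to 1 without 1 replicate, 1 being Mlx without normal 1. Genes called in any list numbered 2 with gene ends alone, 1 with −log10 q of at least 5 or pileups of at least 10 reads, and 3 to 4 without 1 replicate. With all annotated genes, 5.68% had a peak in any list, against 10.5% of protein-coding genes, and the 8-letter E-box was in 2.25% of promoters, against 7.15% for the 6-letter form. Replicate numbers are shared by the groups. Over the 247 regions called in all 4 lists, deviations of same-numbered lists had a correlation of 0.042 (across regions). The labels do not say whether same-numbered libraries were prepared together, and a correlation over regions common to all lists cannot decide it. With the replicate block the difference was −1.5 and the exact permutation p was 0.5, the smallest that 4 labelings allow.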

Other observations

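Of the 59 related genes, 6 had a peak in 1 list only. The matching share of all protein-coding genes was not computed, so nothing is read from the number of these genes. In starved 1 these were Tfap4 (fold enrichment 4.01) and Zbtb17, a partner of MYC in repression (5.30). In normal 1 they were Mxd1, a MAX-binding repressor (4.55), and Npm1, a nucleolar protein (4.39). In normal 2 they were Ruvbl1, an ATPase of chromatin complexes (4.40), and Rragc, a Rag GTPase that brings TFEB to the lysosome (4.11). Of these peaks, the one at Rragc lay in a promoter with an E-box, 83 bp upstream of the start site and 24 bp from the motif. The listed promoters of Zbtb17, Mxd1 and Ruvbl1 held no CACGTG. Tfap4 and Npm1 were not in the promoter table and could not be checked. Pileups at these 6 peaks were between 4 and 8 reads.

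The promoters of 5 related genes held the 6-letter E-box without a USF2 summit in any list. They were Mnt, Mlxipl, Fnip1, Ldha and Arrdc4. A promoter of Nme1 at its other start site also held the 6-letter E-box without a summit.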
